A study of Homo sapiens with 4 samples.

Results

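CD24, CD52 and 5 further proteins that are held on the cell surface by a glycosylphosphatidylinositol (GPI) anchor (CD55, CD58, CD59, PRNP and LY6E) were followed in K562 cells with forced expression of ZNF16. The 7 genes were picked by symbol from the 34692 gene entries of the deposited signal table. CD24 and CD52 were chosen by their low values in the ZNF16 arrays of this same comparison, so their differences are given as a description. The other 5 are common examples of the anchor class, and the question was whether the low values of CD24 and CD52 were shared by that class. K562 is a human cell line with erythroid features that was established from a chronic myelogenous leukaemia. RNA came from stable transductants over-expressing the zinc finger gene ZNF16 (2 arrays) and from stable control transductants of the same line (2 arrays), and was hybridised to Illumina HumanHT-12 V4.0 beadchips. The labels name neither the vector nor its promoter, and they do not say whether a transductant is a clone or a pool, or whether the 2 of a group were derived separately. P-values therefore speak of the spread between these 4 samples alone, and that spread may be technical.

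A GPI anchor is a glycolipid that is built in the endoplasmic reticulum and transferred as a block to the C-terminal end of a protein. The protein then sits in the outer leaflet of the plasma membrane with no segment crossing it, often in cholesterol-rich lipid rafts. The anchor is made once for all such proteins: without PIGA, which starts its synthesis, blood cells lose the whole class, complement inhibitors CD55 and CD59 included, as in paroxysmal nocturnal haemoglobinuria. The genes of the anchored proteins themselves lie on many chromosomes and have unrelated functions. CD24 is a short, heavily glycosylated mucin-like protein of immature B cells, neutrophils and many tumours. CD52 is a very short glycoprotein of lymphocytes and the target of the antibody alemtuzumab.

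The promoter sequences of CD24 and CD52 are shown because these are the 2 genes of the set with low values in the ZNF16 cells. Each window covers 250 bases before and 50 bases from the annotated start of transcription on, 5′ to 3′ on the gene's strand, from RefSeq on GRCh38.p14. Capitals mark every CACCC (a box read by KLF factors), GATAA (the core of the GATA site) and GGGCGG (a GC box read by Sp1) that was found on either strand. The CD24 window is chr6:106975578-106975877 on the minus strand, 1 of 3 windows listed for the gene, and the CD52 window is chr1:26317708-26318007 on the plus strand.
CD24: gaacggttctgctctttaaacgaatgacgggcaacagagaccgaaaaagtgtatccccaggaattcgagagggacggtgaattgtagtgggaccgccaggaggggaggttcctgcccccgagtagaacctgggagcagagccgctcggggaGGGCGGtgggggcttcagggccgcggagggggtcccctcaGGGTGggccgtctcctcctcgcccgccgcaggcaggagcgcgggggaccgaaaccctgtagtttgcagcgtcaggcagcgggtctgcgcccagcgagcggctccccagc
CD52: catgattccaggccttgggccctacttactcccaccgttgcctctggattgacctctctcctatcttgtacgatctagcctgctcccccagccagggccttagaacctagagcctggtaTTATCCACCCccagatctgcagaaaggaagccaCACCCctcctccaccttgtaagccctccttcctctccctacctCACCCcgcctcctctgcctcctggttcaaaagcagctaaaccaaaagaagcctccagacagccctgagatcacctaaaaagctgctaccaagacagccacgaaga
The 2 windows differ in composition. The CD24 window is 66.7% G and C with 25 CpG pairs, more than 68.0% of the 35116 RefSeq promoter windows, whose median is 14. It holds 1 GC box and 1 CACCC box (read as GGGTG on this strand), and no GATAA. The CD52 window is 55.3% G and C with 4 CpG pairs, more than 24.5% of all windows. It holds 3 CACCC boxes and 1 GATAA (read as TTATC), which stands directly before a CACCC box without overlapping it, and no GC box. CACCC was found in 59.9% of all windows, GGGCGG in 45.0% and GATAA in 22.7%, so matches of this kind are common. Neither of these windows has a CCAAT or TATAAA. Among the other members, the CD58 window has 71.7% G and C, 36 CpG pairs and 3 GC boxes, and the CD55 window has 65.0% G and C and 19 CpG pairs. CD59 has 4 windows, from 44.3% to 69.0% G and C. The windows of PRNP and LY6E were not analysed here.

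The arrays were alike in brightness. Mean deposited signals were 956.1 and 991.8 in the ZNF16 arrays and 998.2 and 971.9 in the control arrays, and 9913 and 10574 entries against 10762 and 10585 were detected (detection p under 0.05 against the negative control beads). All 13 erythroid markers listed for K562 were detected on every array. The ZNF16 entry itself was detected on none, with detection p of 0.404 and 0.343 in the ZNF16 arrays and 0.519 and 0.693 in the control arrays, so it does not check the labels. The control arrays differed more from each other (SD of the log2 differences over tested entries 0.52) than the ZNF16 arrays did (0.34), and control replicate 2 lay farthest from the rest. The 10868 entries detected on at least 2 arrays were tested with limma (normexp background correction, offset 16, quantile normalization, log2). Over all tested entries, a share of 0% passed a Benjamini-Hochberg adjusted p of 0.05 (0 of 10868). At an unadjusted p of 0.05, 4.01% were lower and 3.67% higher in the ZNF16 arrays. The median log2 difference over all tested entries was 0.01, with quartiles of −0.21 and 0.23. In 19% of the tested entries both ZNF16 arrays lay below both control arrays, and in 21% both lay above. A share of 0.304% (33 entries) was lower by 2-fold or more in each of the 4 pairings of a ZNF16 with a control array.

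Of the 7 members, CD24 and CD52 were far lower in ZNF16 cells, 4 others were not, and CD55 was undetected. Both ZNF16 arrays lay below both control arrays for 2 of the 6 tested members (CD24 and CD52) and above them for 1 (CD58), and for 3 the groups overlapped (CD59, PRNP and LY6E). CD24 and CD52 were also the 2 members at least 2-fold lower in all 4 pairs. These counts include the contrast by which the 2 genes were picked, so nothing is read from them against the shares above.

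CD24 had deposited signals of 639.9 and 569.1 in the ZNF16 arrays, against 2111 and 2005 in the control arrays. The normalized log2 intensities were 8.14 and 7.61 in the ZNF16 arrays and 10.69 and 10.77 in the control arrays, or means of 7.88 ± 0.37 and 10.73 ± 0.06 (SD, n = 2 each). Both ZNF16 arrays were low, and both control arrays were high and close together. The difference was −2.85 ± 0.25 on the log2 scale (SE of the fit), 7.22-fold lower, the lowest of all 10868 tested entries, and it lay between −3.15 and −2.55 in the 4 pairs. The entry stayed above background in the ZNF16 arrays, with detection p of 0.0175 and 0.0317. The size of the fold depended on the background correction. The deposited signals, with nothing subtracted, differed 3.40-fold, and the authors' processed values, 264.4 and 180.0 in the ZNF16 arrays against 1650 and 1651 in the control arrays, differed 7.43-fold. With the negative-control level taken from all entries instead of those of 1 probe, the log2 difference was −0.91. The CD24 value combines several probes, and near-identical CD24 pseudogene copies could share its signal, so the entry is uncertain in this respect.

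CD52 was detected on every array, with signals of 876.0 and 1364 in the ZNF16 arrays and 3425 and 3205 in the control arrays. On the log2 scale the levels were 9.03 and 9.92 in the ZNF16 arrays, against 11.51 and 11.58 in the control arrays. The control arrays agreed within 0.08, whereas the ZNF16 arrays were 0.89 apart, and the groups did not overlap. The difference was −2.07 ± 0.32 (SE), 4.19-fold lower and the 7th lowest of all tested entries. The 4 pairs ranged from −2.55 to −1.59. The deposited signals differed 2.96-fold and the authors' processed values 3.91-fold. The lower of the ZNF16 arrays was replicate 2 for CD24 and replicate 1 for CD52.

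**Figure D1:**
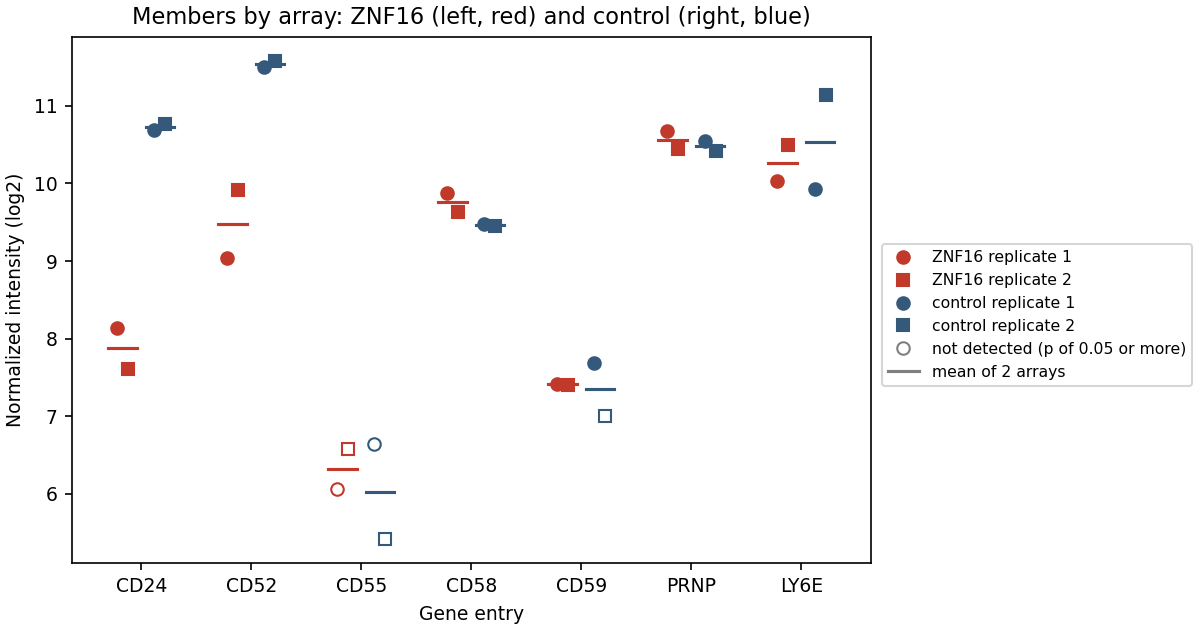
Normalized log2 intensity (vertical axis) of the 7 members on each array, ZNF16 arrays in red to the left and control arrays in blue to the right, with bars at the mean of 2 arrays and open symbols where the entry was not detected. CD24 and CD52 are the genes with both ZNF16 arrays far below both control arrays, CD55 is undetected throughout, and LY6E has its widest gap between the 2 control arrays; heights are not comparable between genes.

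Of the 2 complement inhibitors among the members, 1 could be measured. CD59, which blocks the last step of the membrane attack complex, had signals of 536.4 and 541.6 in the ZNF16 arrays and 572.4 and 504.5 in the control arrays. The ZNF16 values lay between the control values, and the log2 difference was 0.07 ± 0.28 (SE). It turned to −0.27 without control replicate 2 and to −0.19 with median scaling in place of quantile normalization, and its signal, which combines several probes, was close to background. CD55, or decay-accelerating factor, which breaks up the complement convertases, was detected on no array: its signals were 378.2 and 443.6 in the ZNF16 arrays and 435.2 and 260.0 in the control arrays, with detection p from 0.122 to 0.995. It was not well above background in either group, and no fold is given.

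CD58, or LFA-3, the ligand of the T cell receptor CD2, pointed the other way. It had signals of 1298 and 1188 in the ZNF16 arrays and 1114 and 1071 in the control arrays. Both ZNF16 arrays lay above both control arrays, as in 21% of all tested entries, with a log2 difference of 0.29 ± 0.22 (SE) and pairs from 0.15 to 0.43. It became 0.07 with median scaling, a setting that moves the median of all tested entries to −0.19. CD58 is also made in a form with a membrane-spanning segment, and an entry with 1 value for the gene does not tell the 2 forms apart.

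PRNP, the cellular prion protein, had signals of 1993 and 1808 in the ZNF16 arrays and 1960 and 1665 in the control arrays. The groups overlapped, and the log2 difference was 0.07 ± 0.22 (SE), or −0.10 with median scaling. PRNP was detected on all 4 arrays. LY6E, an interferon-induced member of the LY6 family, had signals of 1403 and 1860 in the ZNF16 arrays and 1383 and 2484 in the control arrays. Its control arrays were 1.22 apart on the log2 scale, which is wider than its difference between the groups of −0.27 ± 0.41 (SE). Without control replicate 2 the difference was 0.34.

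The comparison was then widened to 131 human genes listed for GPI-anchored proteins, of which 130 are in the table (LYPD8 was not matched). K562 cells showed few of them: 12 were detected on all 4 arrays, 21 were detected on at least 2 and tested, 10 on 1 array, and 99 on none. The undetected genes include CD14, CD48, PLAUR, THY1, NT5E, GPC3, SEMA7A, CD109 and BST1. Without CD24 and CD52, 19 were tested, with 8 lower and 11 higher in the ZNF16 arrays. Their median log2 difference was 0.07, against 0.01 for all tested entries. With median scaling the split was 15 lower and 4 higher and the median −0.17, against −0.19 for all tested entries. The lower quartile of the 19 was −0.41, against −0.21 for all tested entries, and the upper quartile 0.11, against 0.23. Both ZNF16 arrays lay below both controls for 5 of the 19 (26.3%) and above them for 3 (15.8%). Over all tested entries these shares were 19% and 21%. None passed limma's adjusted p of 0.05, the smallest being 0.352. At an unadjusted limma p of 0.05 there were 5 lower and 0 higher, against 4.01% and 3.67% of all tested entries. ULBP2 and GPC2, which are among the 5 in both counts, passed the filter only through the control arrays. They could only be lower in the ZNF16 arrays, so these counts describe the detected genes and not the whole class.

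After CD24 and CD52, the lowest of the class was ULBP2, a stress ligand that natural killer cells read through the receptor NKG2D. ULBP2 had signals of 431.4 and 451.3 in the ZNF16 arrays, where it was not well above background, and 550.5 and 683.8 in the control arrays, where it was detected. It was at least 1.93-fold lower in the ZNF16 arrays, with a fitted log2 difference of −1.32 ± 0.28 (SE; limma adjusted p = 0.352). That bound, like the others given here, depends on the background correction: the log2 difference was −0.48 with none and −0.09 with the negative-control level taken from all entries. ULBP2 passed the threshold in 1 alternative, the fit with the replicate number as a block (adjusted p = 0.021), and its adjusted p ranged from 0.021 to 1 over all alternatives. ULBP1, its relative, had signals of 493.6 and 579.6 in the ZNF16 arrays and 654.2 and 660.9 in the control arrays (log2 difference −0.74, limma adjusted p = 0.626). GPC2, a heparan sulfate proteoglycan of the glypican family, was at least 1.36-fold lower and undetected in both ZNF16 arrays (limma adjusted p = 0.455), a bound that likewise does not hold under those 2 background settings (log2 differences of −0.29 and −0.05). PRSS21, the serine protease testisin, had a log2 difference of −0.64 and ALPP, placental alkaline phosphatase, one of −0.54 (limma adjusted p = 0.599 and 0.643). ALPP has the near-identical copies ALPPL2 and ALPI, so its entry is uncertain. GAS1, a growth-arrest and Hedgehog co-receptor protein near background, had a difference of −0.20.

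At the other end, the differences were small. The 6 entries with the highest values after CD58 were RTN4R, the Nogo receptor (0.28), GPC5, another glypican (0.20), LYPD2 of the LY6 family (0.11), EFNA4, an ephrin (0.11), BST2 or tetherin, which holds enveloped viruses at the cell surface (0.11), and TFPI, the tissue factor pathway inhibitor (0.11). Their limma adjusted p-values lay between 0.787 and 0.939. With median scaling, EFNA4, BST2 and TFPI were below 0 (−0.15, −0.04 and −0.05). BST2 and TFPI were detected on all 4 arrays. TFPI had signals of 3442 and 4127 in the ZNF16 arrays and 4150 and 2896 in the control arrays, and BST2 had 2591 and 2383 against 3213 and 1667. In both genes these ZNF16 signals lay within the range of the control signals. After normalization, TFPI in ZNF16 replicate 2 (11.83) was just above its higher control value (11.81).

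**Figure D2:**
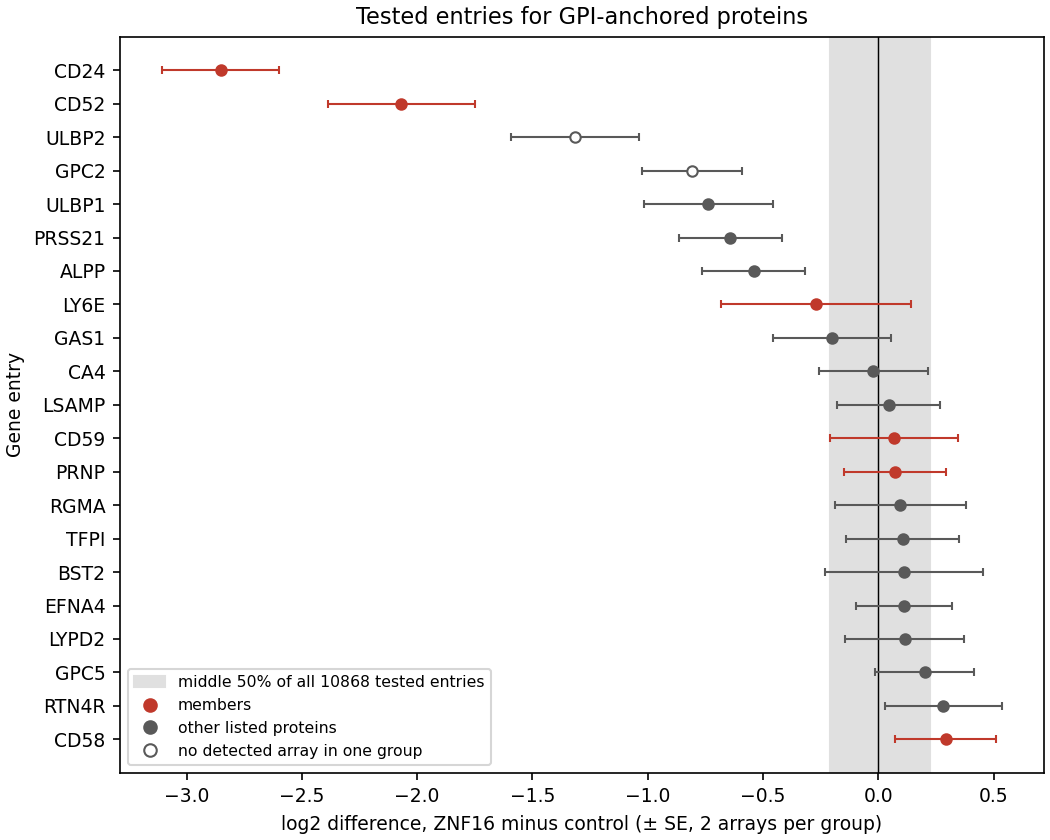
Log2 difference, ZNF16 minus control (horizontal axis, with the SE of the fit), of the 21 tested genes for GPI-anchored proteins, members in red, with open symbols where one group had no detected array and a grey band over the middle 50% of all 10868 tested entries. CD24 at −2.85 and CD52 at −2.07 lie apart from the others, which run from −1.32 to 0.29.

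The genes that build and attach the anchor were examined next, as they serve every protein of the class. Of 42 such genes 33 were tested, 13 lower and 20 higher in the ZNF16 arrays, with a median log2 difference of 0.04. With median scaling the split was 23 lower and 10 higher, with a median of −0.17. Both ZNF16 arrays lay below both controls for 3 (9.09%) and above them for 7 (21.2%). Over all tested entries these shares were 19% and 21%. None passed limma's adjusted p of 0.05 (smallest 0.610). At an unadjusted limma p of 0.05 there were 0 lower and 1 higher, against 4.01% and 3.67% of all tested entries. PIGA, which starts the synthesis, was detected on no array and was not tested. By stage, the median was 0.06 for the 6 tested genes of the first step, the transfer of N-acetylglucosamine. It was 0.07 for the 3 of deacetylation, acylation and flipping. It was 0.001 for the 6 of mannose addition, 0.01 for the 3 of ethanolamine phosphate addition, 0.11 for the 5 of remodelling and release and 0.19 for the 5 of export from the endoplasmic reticulum. The 5 subunits of the transamidase, which joins the finished anchor to the protein, had a median of −0.41, with 3 lower and 2 higher, and −0.61 with median scaling. The medians of the other stages lay between −0.21 and −0.01 under that scaling. Control replicate 2 was the higher control array for the 3 lower subunits (GPAA1, PIGS and PIGT) and the lower one for PIGK and PIGU. Without that array GPAA1 was at 0.01 and PIGS at −0.18, and the transamidase median without it was not computed.

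Of the 3 lowest and 3 highest values in the anchor pathway, 5 moved towards 0 or past it without control replicate 2. GPAA1, a transamidase subunit, had signals of 826.6 and 981.6 in the ZNF16 arrays and 915.2 and 1815 in the control arrays. Its log2 difference of −0.77 became 0.01 without control replicate 2. PIGQ, which stabilises the enzyme of the first step, had 1721 and 1529 in the ZNF16 arrays and 1930 and 814.8 in the control arrays, and its difference of 0.65 became −0.24 without the same array. TMEM8, now named PGAP6, a phospholipase that releases anchored proteins, had a difference of −0.92 that became −0.06 without it. PIGS, another transamidase subunit, had 1286 and 1515 in the ZNF16 arrays and 1579 and 1909 in the control arrays (log2 difference −0.44, limma adjusted p = 0.687). FRAG1, now PGAP2, which remodels the anchor's lipid, was at 2096 and 1702 in the ZNF16 arrays, against 1643 and 1095 in the control arrays (0.68, limma adjusted p = 0.656). PIGG, which adds a side-chain ethanolamine phosphate, was at 603.7 and 607.2 in the ZNF16 arrays and 507.7 and 552.5 in the control arrays (0.59, limma adjusted p = 0.610). Without control replicate 2, PIGS was at −0.18 and FRAG1 at 0.31, while PIGG was at 0.66. Without control replicate 1 the 5 moved away from 0 instead. GPAA1 was then at −1.54, PIGQ at 1.55, TMEM8 at −1.79, PIGS at −0.70 and FRAG1 at 1.05, while PIGG was at 0.53.

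**Figure D3:**
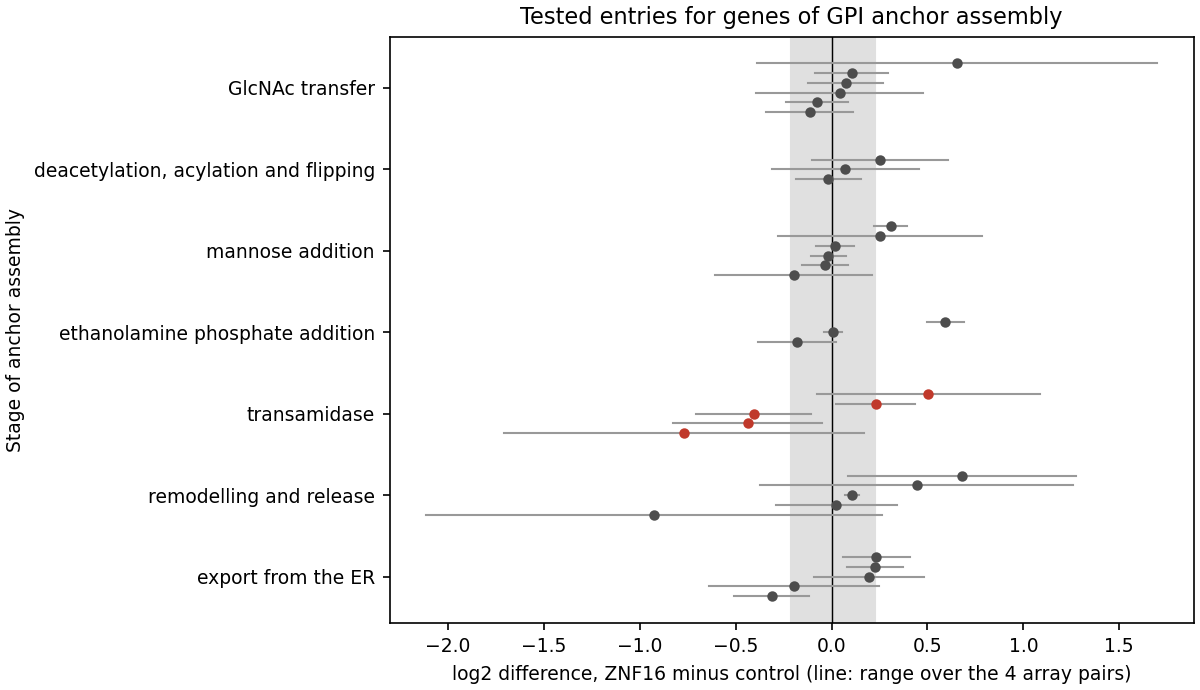
Log2 difference, ZNF16 minus control (horizontal axis), of the 33 tested genes of GPI anchor assembly by stage, 1 point a gene, with a line over the range of the 4 array pairs, transamidase subunits in red and a grey band over the middle 50% of all tested entries. With all 4 arrays, stage medians run from −0.41 (transamidase) to 0.19 (export), and the longest lines belong to genes whose control arrays differ most.

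Most proteins that work beside the anchored members gave small differences, YES1 being the exception. Of 11 complement components, receptors and regulators that carry no GPI anchor, 3 were detected on at least 2 arrays. Each was higher in both ZNF16 arrays than in both control arrays, as were 21% of all tested entries. Among the 3 were CR2 (at least 1.04-fold higher, undetected in the control arrays, limma adjusted p = 0.681) and CD46 (log2 difference 0.33, limma adjusted p = 0.728). CR2 passed the filter only through the ZNF16 arrays, so it could only be higher. Of 5 binding partners of the members or of CD48, CD97 (now ADGRE5), the receptor for CD55, was the tested one, with a difference of −0.20 (limma adjusted p = 0.849). SIGLEC10 and SELP, which bind CD24, were undetected, and so were CD2, the receptor for CD58, and CD244, the receptor for CD48. Of 16 raft and Src-family genes, whose kinases sit under anchored proteins, 11 were tested, 5 lower and 6 higher, with a median of 0.02 (8 lower and 3 higher with median scaling, median −0.16). YES1 had the highest difference (1.12, limma adjusted p = 0.348, and 0.044 with the replicate number as a block), with signals of 1100 and 1070 in the ZNF16 arrays and 746.3 and 687.8 in the control arrays, and ERLIN2 followed with 0.45. LYN, a kinase that CD24 is known to engage, had −0.23. Without control replicate 2, ERLIN2 was at 0.03.

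Surface proteins with membrane-spanning segments served as the comparison for the anchor class. Of 59 such genes 28 were tested, 17 lower and 11 higher in the ZNF16 arrays, with a median log2 difference of −0.03 (20 lower and 8 higher with median scaling, median −0.22). Both ZNF16 arrays lay below both controls for 7 (25.0%) and above them for 8 (28.6%). Over all tested entries these shares were 19% and 21%. None passed limma's adjusted p of 0.05 (smallest 0.302). At an unadjusted limma p of 0.05, 3 were lower and 3 higher, against 4.01% and 3.67% of all tested entries. The lowest was CD33, a sialic-acid-binding myeloid receptor, with signals of 711.6 and 942.5 in the ZNF16 arrays and 1552 and 1610 in the control arrays (−1.45 ± 0.28 SE, limma adjusted p = 0.302, and 0.012 with the replicate number as a block). ICAM2, an integrin ligand, had −0.69. CD83 was at least 1.29-fold higher and undetected in the control arrays, and the tetraspanin TSPAN5 had 0.75. CD83 passed the filter only through the ZNF16 arrays and could only be higher. It is among the 8 above both controls and the 3 higher at an unadjusted p of 0.05, so these counts describe the detected genes.

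The profiles of CD24 and CD52 over the 4 arrays were compared with 7053 other tested entries by the root mean square distance of their centred log2 values, in log2 units. The 5 nearest to CD24 were SCIN, an actin-severing protein (0.31), ACRBP, an acrosomal protein (0.46), ENPP3, a surface pyrophosphatase of basophils (0.51), SEMA4D, a semaphorin (0.51), and TNFRSF14, a receptor of the TNF family (0.55). The 5 nearest to CD52 were SEMA4D (0.17), CRYBA4, a crystallin (0.19), C10ORF128, now TMEM273 (0.27), C6ORF105, now ADTRP (0.27), and MARCKS, a substrate of protein kinase C (0.29). ACRBP, ENPP3 and SEMA4D were undetected in both ZNF16 arrays, so that their values there are background. CD24 and CD52 were 0.63 apart from each other. No listed GPI-anchored protein took 1 of the 10 nearest places. The 7 members and the entries that combine several probes were not among those compared, so nothing is read from this. As 4 arrays in 2 groups fix little beyond the group difference, these distances are a description.

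Markers of other cells were read beside these values, since in bulk RNA fewer cells of a type and less RNA per cell cannot be told apart. Of 13 lymphocyte markers 9 were detected on no array, MS4A1 on 1, and 3 on at least 2, CD79B and CD3D among them. The summed level of the list was 1297 and 1512 in the ZNF16 arrays and 1698 and 1695 in the control arrays. That gap came almost wholly from CD3D, and the 9 undetected markers add background to each sum. CD3D had signals of 650.8 and 813.4 in the ZNF16 arrays and 1033 and 1052 in the control arrays (log2 difference −0.89, limma adjusted p = 0.494), while CD79B had a difference of 0.16. Of the 3 tested, 2 were lower and 1 higher, with a median of −0.22. CD79A, CD3E, PTPRC and LCK were undetected in both groups. None of 9 myeloid markers was detected on more than 1 array. Of 7 epithelial and packaging-cell markers 5 were tested. The summed level of the list was 8109 and 8999 in the ZNF16 arrays and 10968 and 14167 in the control arrays. Most of that gap came from VIM, at −1.10 (limma adjusted p = 0.348). EPCAM went the other way, at 0.52, and CDH1 was undetected. Their part in the CD24 and CD52 values was not tested.

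The low values of CD24 and CD52 kept their sign in each of the settings tried, while their size moved. Without background correction the log2 difference was −1.76 for CD24 and −1.61 for CD52. Leaving out 1 array at a time gave −3.11 to −2.59 for CD24 and −2.51 to −1.63 for CD52, in both cases with the ends set by which ZNF16 array was left out. CD24 did not enter the fit limited to entries with a detection p under 0.01 on all 4 arrays.

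**Figure D4:**
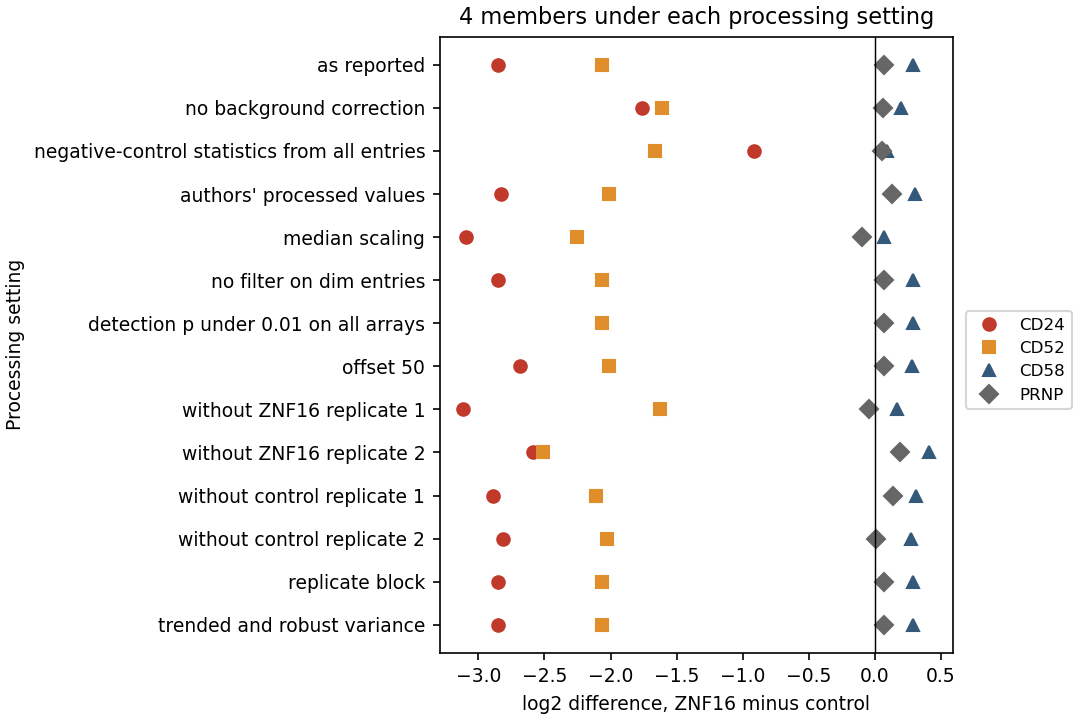
Log2 difference, ZNF16 minus control (horizontal axis), of CD24, CD52, CD58 and PRNP under each processing setting (vertical axis). CD24 and CD52 stay below 0 in every setting that gives a value, between −3.11 and −0.91 for CD24 and between −2.51 and −1.61 for CD52, whereas PRNP runs from −0.10 to 0.19.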

How the data were processed

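RNA from 2 ZNF16 and 2 control transductants was measured on Illumina HumanHT-12 V4.0 beadchips, grouped by the sample titles. The deposited signals are linear intensity values, 1 for each of 34692 gene symbols, summarised in GenomeStudio 2010.2, per the submitters' processing notes. Per the file headers, each deposited signal comes with a detection p-value, which sets it against the array's negative beads. The rule for combining a gene's probes, the build and the annotation were not given in the sources used here. A second deposited table holds the authors' processed intensity values for 34685 entries, which mostly follow a straight line of the signals. The ZNF16 entry departed from that line. In control replicate 1 its signal of 392.8 stood beside a processed value of 0.22, whereas GPC1 had 390.8 and 20.0. No array was left out.

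Signals were corrected with normexp in limma 3.58.1 (R 4.3.3). For each array, the negative-control mean and SD were derived from detection p-values, using the 27095 entries that lie on single-probe steps of 1 in 770 (within 0.002). The other 7597 entries combine several probes. An offset of 16, quantile normalization and log2 followed. Entries with a detection p under 0.05 on at least 2 arrays were compared, ZNF16 minus control, with lmFit and eBayes (Benjamini-Hochberg over all 10868, two-sided). With 2 against 2 arrays an exact permutation test of a single value cannot go below p = 0.333. Where an entry was detected on no array of a group, the fold is a bound against the higher, for each array, of its own value and the lowest detected single-probe value.

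The members and lists were chosen with earlier results of these data known, so CD24, CD52 and their nearest entries carry no test. Named were the 7 members, the 6 largest differences in each direction among other listed anchored proteins, 3 in each direction among assembly genes, up to 2 in each direction in 4 further lists (some of which are not reported here), and the 5 entries nearest to CD24 and to CD52 among those on single-probe steps with a current symbol. Older symbols were updated through RefSeq (GRCh38.p14), by which 8957 of the tested entries matched. The fit was tested on simulated data. The number of arrays limits the precision. The alternatives changed the background correction, the scaling, the filter, the offset, the variance model and the replicate block, or left out 1 array.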

Additional observations from a re-analysis of the deposited data

How the results depend on the processing

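CD24 and CD52 were below 0 in each alternative that gave a value. A change of sign in at least 1 alternative was seen for CD59, PRNP and LY6E. The same held for the genes given below with a range across 0 or a value on the other side of 0. Leaving aside CD24, CD52 and their nearest entries, which carry no test, 3 genes came to pass the threshold. The cause was not tested. Median scaling moved the median of all tested entries to −0.19, that of the other anchored proteins to −0.17 and that of the assembly genes to −0.17, and put EFNA4 at −0.15, BST2 at −0.044 and TFPI at −0.046. Taking the negative-control level from every entry put the assembly median at 0.014. Leaving out 1 array at a time gave −0.10 to 0.066 for the median of the other anchored proteins (the low end without control replicate 2) and −0.011 to 0.047 for that of the assembly genes. In the same way GAS1 ranged from −0.44 to 0.040, BST2 from −0.38 to 0.60, TFPI from −0.099 to 0.31, CD97 from −0.44 to 0.049, LYPD2 from −0.14 to 0.37, GPAA1 from −1.54 to 0.0053 and PIGQ from −0.24 to 1.55. The labels do not say whether same-numbered arrays were paired. The differences between replicates 1 and 2 correlated at 0.193 between the groups over the 10868 tested entries. With 2 pairs this cannot settle it. Of the anchored proteins other than CD24 and CD52, the fit with the replicate number as a block called 1, ULBP2 (adjusted p = 0.021). The same fit also called YES1 (0.044) and CD33 (0.012). In the whole table it called 77 lower and 45 higher, against 0 as reported. There were 6 lower and 1 higher with median scaling, 2 and 1 with an offset of 50, 2 and 1 with a trended and robust variance, 1 and 1 without ZNF16 replicate 1, and 0 elsewhere. The restriction of both list medians to entries on single-probe steps was chosen after seeing the data and gave 0.074 and 0.034. Signal over background limits CD24, CD59, ULBP1, ULBP2 and GPC2, whose values in the ZNF16 arrays lie near the negative controls.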

Other observations

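The other ligands of the receptor NKG2D were read beside ULBP1 and ULBP2, a group chosen after the values were seen. MICA and MICB, which cross the membrane, had log2 differences of −0.16 and 0.004 (limma adjusted p = 0.885 and 0.997). With median scaling the values were −0.41 and −0.18, against −0.19 for all tested entries. ULBP3, RAET1L and RAET1G were detected on no array, and RAET1E was detected on 1. Of the 4 tested genes of this group, ULBP1 and ULBP2 had both ZNF16 arrays below both control arrays, as did 19% of all tested entries. For MICA and MICB the groups overlapped. ULBP2 passed the filter only through the control arrays and could only be lower, so nothing is read from this count. ULBP1 and ULBP2 did not pass the threshold (limma adjusted p = 0.626 and 0.352), and their difference from MICA and MICB was not tested.

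The 3 nearest tested protein-coding genes on each side of CD24 and of CD52 did not share the low values. Beside CD24, RTN4IP1 (−0.16), ATG5 (0.45) and PREP (−0.15) lie on one side, and PDSS2 (1.02, limma adjusted p = 0.386), OSTM1 (−0.22) and SNX3 (0.10) on the other. PDSS2, an enzyme of coenzyme Q synthesis, thus had the opposite sign to its neighbour CD24, also with median scaling (0.72). Beside CD52, UBXN11 (−0.12), SH3BGRL3 (−0.48) and CCDC21, now CEP85 (0.61), lie on one side, and DHDDS (−0.38), HMGN2 (0.46) and PIGV (0.25) on the other. PIGV, a mannosyltransferase of the anchor pathway, is 1 of the 3 nearest tested genes after CD52. None of these 12 genes passed limma's adjusted p of 0.05.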
